A study of Mus musculus with 6 samples.

Results

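Mitochondrial ribosomal protein genes were taken from the count table by symbol: Mrpl or Mrps followed by a digit, with symbols of pseudogenes left out. The rule gave 78 of 33157 rows, and all 78 passed the filter on low counts that left 13483 genes tested. The left-out row was Mrpl23-ps1. The study profiled ILC3s (group 3 innate lymphoid cells), lymphocytes of the gut wall that carry no antigen receptor, from wild-type mouse small intestine. They were sorted as CD45-dim, lineage-negative, CD90.2-high, CD127+ and KLRG1- cells and kept in complete RPMI. Every culture held IFN-γ at 20 ng/mL for 4 h, and no culture was without it. The control group (3 libraries) had IFN-γ alone and the IGF-1 group (3 libraries) had IFN-γ with IGF-1, a growth factor that acts through the PI3K-AKT-mTOR pathway, at 200 ng/mL. The labels do not state the age or pooling of the mice, or whether libraries of 1 group are separate animals or cultures. The p-values therefore describe the spread among these 6 libraries alone, and that spread may be technical.

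Mitochondria carry their own ribosome, the mitoribosome, which translates the few mRNAs of the mitochondrial genome. All of those mRNAs encode subunits of the respiratory chain and ATP synthase. The RNA parts of the mitoribosome come from mitochondrial DNA, while every protein part is encoded in the nucleus, made in the cytosol and imported. In the Mrpl and Mrps symbols the last letter stands for the large and the small subunit: the small subunit reads the mRNA, and the large subunit joins amino acids. Some of the proteins have bacterial homologues and others were added to the ribosome in the mitochondrial lineage. A few symbols do not match the structure. Mrps30 and Mrps18a sit in the large subunit, and Mrps36 is a component of the oxoglutarate dehydrogenase complex. By structure, 51 of the genes encode large subunit proteins, 26 small subunit proteins and 1, Mrps36, neither.

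Many of these genes share promoter features, which the symbols did not select for. A RefSeq promoter window (GRCm38.p6, 250 bases before to 50 after the start) was found for 69 of the 78 genes. A gene was counted once if any of its windows held a motif on either strand. The 69 genes had 1.09 windows each on average and the tested genes 1.27, and the shares were not adjusted for this. The ETS-type motif CCGGAAG, bound by GABP among others, was present for 26 of 69 (37.7%), against 20.3% of the 9993 tested genes with a window and 9.93% of all 27025 genes in the table. The YY1-type motif AAGATGGC was present for 12 of 69 (17.4%), against 5.30% of tested genes and 3.19% of all. The core of the NRF1 motif, GCATGCGC, was present for 8 of 69 (11.6%), against 5.91% and 3.05%. The E-box CACGTG (7.25% against 11.4% of tested genes), CCAAT (39.1% against 43.1%) and TATAAA (7.25% against 8.91%) had lower shares among the 69 genes. None of these letters is contained in another of the 6 motifs. The letters were settled after the windows had been searched, so the shares are descriptions and have no test.

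Shown are the 150 bases just before the start for 4 genes described further on: Mrps22, which had the smallest p of all 78, and the large subunit genes Mrpl3 and Mrps18a, which had overlapping groups, and, for the NRF1 core, the stalk gene Mrpl10. Capitals mark the ETS-type motif in the first 3 and the NRF1 core in Mrpl10, and positions are RefSeq's on GRCm38.p6. All 4 are carriers of a motif and serve as examples only.
Mrps22, chr9:98601680-98601829, minus strand: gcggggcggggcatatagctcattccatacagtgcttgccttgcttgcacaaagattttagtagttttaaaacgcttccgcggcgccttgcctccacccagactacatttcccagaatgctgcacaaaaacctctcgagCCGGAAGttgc
Mrpl3, chr9:105053118-105053267, plus strand: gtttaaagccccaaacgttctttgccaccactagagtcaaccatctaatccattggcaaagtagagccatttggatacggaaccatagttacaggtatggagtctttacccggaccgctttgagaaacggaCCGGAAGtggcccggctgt
Mrps18a, chr17:46110854-46111003, plus strand: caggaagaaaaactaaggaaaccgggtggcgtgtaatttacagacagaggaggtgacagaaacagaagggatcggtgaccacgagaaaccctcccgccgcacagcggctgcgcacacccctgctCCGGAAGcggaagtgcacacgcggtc
Mrpl10, chr11:97041432-97041581, plus strand: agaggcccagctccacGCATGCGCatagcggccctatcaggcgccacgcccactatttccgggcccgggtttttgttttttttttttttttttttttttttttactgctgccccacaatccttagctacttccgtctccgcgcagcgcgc
Among the carriers shown, the ETS-type motif had its first base 11 bases upstream in Mrps22, 19 in Mrpl3 and 26 in Mrps18a. Other carriers, such as Mrpl51, had it farther upstream. Of other genes with a small p, Mrps23 had the ETS-type motif in its window, and Mrpl50, Mrps14 and Mrpl42 did not. In Mrpl10 the NRF1 core began 134 bases upstream. The median log2 fold change was 0.15 both in the 26 genes with the ETS-type motif (23 positive) and in the 43 without it (36 positive). For the YY1-type motif it was 0.15 in the 12 genes with it (12 positive) and 0.15 in the 57 without it (47 positive). For the NRF1 core it was 0.16 in 8 genes (7 positive) and 0.15 in 61 (52 positive). Whether these groups differ was not tested.

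All 78 genes were transcribed in ILC3s, at a median of 96.6 CPM (counts scaled to the TMM-adjusted library total) against 23.6 CPM for all tested genes. Divided by exonic length, the median was 54.5 CPM per kb, against 7.18 for all tested genes. Per kb, the most abundant transcripts were Mrpl42 (288 CPM per kb), Mrpl33 (265) and Mrpl41 (258), all of the large subunit. The least abundant were Mrpl34 (5.73), Mrps30 (6.40) and Mrpl19 (8.34). The proteins enter the mitoribosome mostly as single copies, yet their mRNA levels per kb spanned a 50.2-fold range. Exonic length is the union of annotated exons, whether or not ILC3s use them. Mrpl19 shares 1962 of its 5000 bases with the opposite-strand gene Gcfc2, and Mrps30 601 of 3319 with B430218F22Rik. The part of length and overlap in this range was not tested. Without scaling by length, Mrps14 had the highest mean, at 306 CPM, followed by Mrpl41 and Mrps17. Mrpl34 was the single gene under 10 CPM, at 4.46, 3.17 and 3.90 CPM in the control libraries and 3.60, 3.16 and 2.59 CPM with IGF-1.

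The comparison asked whether IGF-1 changes the mRNAs of the mitoribosome in ILC3s exposed to IFN-γ. Of the 78 genes, 66 had a positive log2 fold change (IGF-1 over control) and 12 a negative one, against 48.7% positive among all tested genes. The median was 0.15 on the log2 scale, beside -0.01 for all tested genes and 0.00 for the 8565 with at least 10 CPM. No single gene passed the test: by edgeR's quasi-likelihood test with Benjamini-Hochberg adjustment over all genes, none was higher (0) and none lower (0) at the 0.05 threshold, where 0.497% of all genes passed. DESeq2 and limma-voom also called 0 of the 78, against 3.38% and 0.712% of all genes. At an unadjusted p under 0.05 there were 4 genes, all higher (5.13%, against 5.58% of all tested genes), and 0 lower (6.24% of all). The 4 were Mrps22, Mrpl50, Mrps28 and Mrps14. In 9 genes all 3 IGF-1 libraries lay above all 3 controls (11.5%, background 8.81%), and in 2 they lay below (2.56%, background 9.17%). For any one gene, the exact permutation test (two-sided) has a floor of p = 0.1 at this group size.

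**Figure D1:**
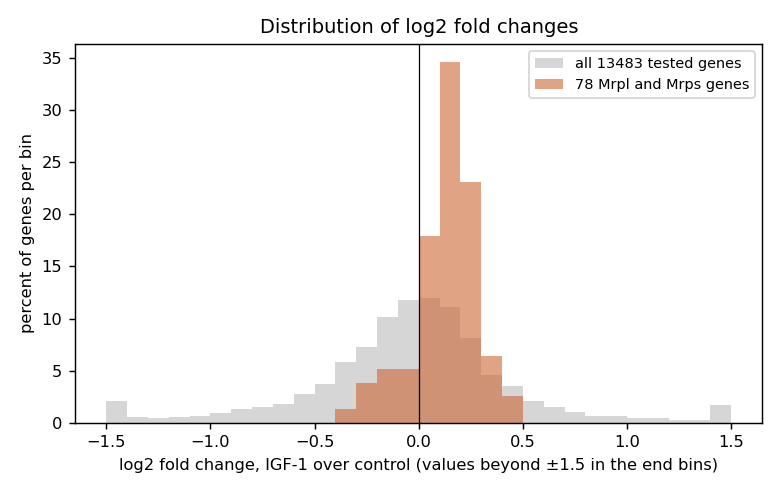
Percent of genes per bin of 0.1 in log2 fold change (horizontal axis, IGF-1 over control), for the 78 Mrpl and Mrps genes and all 13483 tested genes, with values beyond the axis in the end bins. The 78 genes form a narrow peak just right of 0 (median 0.15), between -0.30 and 0.44, while all genes centre on 0.

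**Figure D2:**
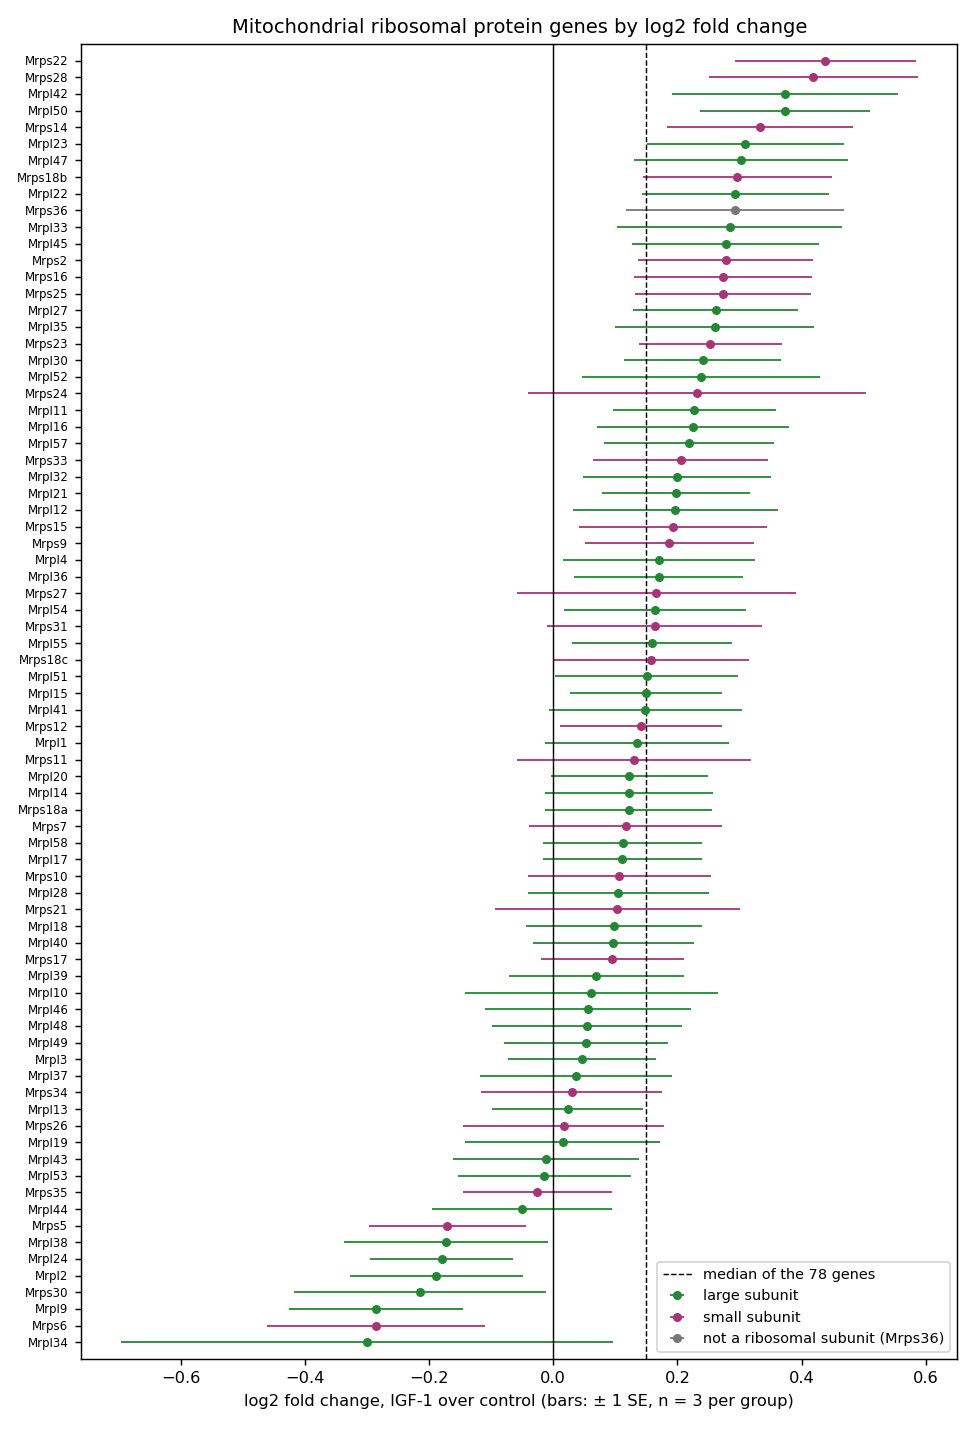
Log2 fold change of each gene (points) with ± 1 SE (bars, 3 libraries per group), coloured by subunit, with the median of the 78 dashed. From Mrps22 at the top to Mrpl34 at the bottom, 66 points lie right of 0, and genes of both subunits are spread along the whole range.

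The libraries with IGF-1 did not share the pattern equally. The reads of the 78 genes summed to 7623, 7012 and 7011 CPM in control replicates 1, 2 and 3, and to 7954, 8829 and 7096 CPM in IGF-1 replicates 1, 2 and 3. IGF-1 replicate 2 was thus the highest library, while IGF-1 replicate 3 lay under control replicate 1, so the groups overlapped. Measured gene by gene as log2(CPM + 0.5) minus the control mean, the median over the 78 genes was 0.15 in IGF-1 replicate 1, 0.31 in replicate 2 and -0.02 in replicate 3. Control replicate 1 stood at 0.08, above IGF-1 replicate 3, and control replicates 2 and 3 at -0.03. Over all tested genes these medians stayed between -0.01 and 0.01.

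Counts per library show the same order. In IGF-1 replicate 2, 59 of the 78 genes lay above all 3 controls (background 28.4%), and in IGF-1 replicate 1, 42 did (background 26%). In IGF-1 replicate 3 only 14 did (background 24.9%), and 17 lay below all controls (background 25.6%). Among the IGF-1 libraries replicate 3 held the lowest value for 56 of the 78 genes, and replicate 2 the highest for 59. Without IGF-1 replicate 2 the median was 0.06 and 54 genes were positive. Without IGF-1 replicate 3 the median was 0.23 with 66 positive, and 17 genes were higher at an unadjusted p under 0.05 (background 6.35%) and 1 lower (background 7.4%), with 0 called. Without IGF-1 replicate 1 the median was 0.16 with 66 positive, so of the IGF-1 libraries only leaving out replicate 2 lowered the median.

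**Figure D3:**
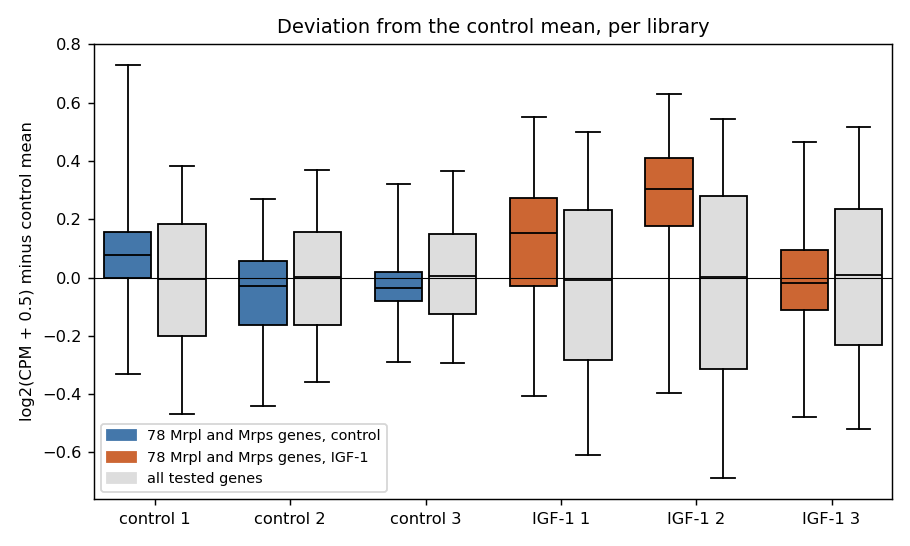
Deviation from the control mean in log2(CPM + 0.5) for each library (horizontal axis), as boxes of the quartiles for the 78 Mrpl and Mrps genes (coloured, whiskers to the extremes) and for all tested genes (grey, whiskers to the 10th and 90th percentiles). The box of IGF-1 replicate 2 (median 0.31) is the highest, and that of IGF-1 replicate 3 (median -0.02) lies among the controls.

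Other properties of the libraries moved with these values. Of the 78 genes 50 fell in the shortest quartile of tested genes (up to 1808 exonic bases). All 3217 genes of that quartile had a median log2 fold change of 0.04, and their median deviation from the control mean was 0.04, 0.13 and -0.02 in IGF-1 replicates 1, 2 and 3. The longest quartile had a median log2 fold change of -0.06, and deviations of -0.03, -0.11 and -0.01. Short genes as a whole thus kept the same order of the IGF-1 libraries, at a smaller size. The shortest quartile stood at 0.026, -0.008 and -0.021 in control replicates 1, 2 and 3, and at -0.022 in IGF-1 replicate 3. In this quartile and in the 78 genes alike, IGF-1 replicate 3 lay close to control replicates 2 and 3. Of the 5 nuclear noncoding RNAs listed, 4 passed the filter and summed to 1578, 2860 and 2671 CPM in control replicates 1, 2 and 3 and to 1677, 1160 and 2209 CPM in IGF-1 replicates 1, 2 and 3, lowest where the Mrpl and Mrps genes were highest. Snhg11 had at most 1 read in a library. The part of transcript length or of nuclear RNA in the result was not tested.

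By subunit, the small subunit had 23 of 26 genes positive with a median of 0.16, and the large subunit 42 of 51 with a median of 0.12. Proteins counted as having no bacterial homologue had, in the small subunit, the highest median (0.19, 9 of 10 positive) and, in the large subunit, the lowest (0.10, 16 of 21 positive). Genes with bacterial homologues lay between, at 0.15 in each subunit (14 of 16 and 26 of 30 positive). Mrps18a and Mrps18b, which are related to bacterial S18, were counted without a homologue here, and Mrps18c with one. Whether these groups differ was not tested. Each group had its highest median deviation in IGF-1 replicate 2 (from 0.25 to 0.34).

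In the small subunit, Mrps22, a mitochondria-specific protein, had the smallest p of all 78 genes. Its level was 30.0, 30.9 and 29.3 CPM in the control libraries and 36.5, 44.5 and 41.1 CPM with IGF-1 (log2 fold change 0.44 with SE 0.15, adjusted p = 0.258). All IGF-1 libraries were above all controls, and replicate 3 was here not the lowest of the group. Mrps28 stood at 30.1, 31.0 and 29.5 CPM without and 41.9, 47.0 and 32.3 CPM with IGF-1 (log2 fold change 0.42 with SE 0.17, adjusted p = 0.353). The groups did not overlap, with IGF-1 replicate 3 just above the highest control. Mrps14, the most abundant of the genes by CPM and the homologue of bacterial S14, measured 262, 299 and 253 CPM against 364, 388 and 272 CPM (log2 fold change 0.33 with SE 0.15, adjusted p = 0.420). IGF-1 replicate 3 fell inside the control range. Mrps23, at 94.6, 90.0 and 96.1 CPM and 111, 118 and 106 CPM (log2 fold change 0.25 with SE 0.12, adjusted p = 0.426), again had separate groups.

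In Mrps2, Mrps18b and Mrps25, also of the small subunit, all IGF-1 libraries were above all controls too. Mrps2 ranged from 32.2 to 35.9 CPM in controls and from 38.5 to 43.9 CPM with IGF-1 (log2 fold change 0.28 with SE 0.14, adjusted p = 0.479). Mrps25 was read with caution, since its exons share 3533 bases with the opposite-strand gene Nr2c2 and the libraries do not mark strand. Mrps12, a protein of the decoding centre that in bacteria is the site of streptomycin resistance, was at 170.4, 145 and 152 CPM in controls and 163, 195 and 157 CPM with IGF-1 (log2 fold change 0.14 with SE 0.13, adjusted p = 0.747), with groups that overlapped. Mrps16 at 144, 156 and 147 and 193, 201 and 145 CPM (log2 fold change 0.27 with SE 0.14, adjusted p = 0.493) followed the library order of the whole family, with IGF-1 replicates 1 and 2 high and replicate 3 within the controls. Mrps7, an early-binding assembly protein, had a single high library: 97.3, 139 and 97.7 CPM with IGF-1 beside 109, 97.7 and 101 CPM (log2 fold change 0.12 with SE 0.16, adjusted p = 0.840). Mrps34 showed no difference beyond its spread (142 ± 19.3 and 145 ± 19.4 CPM, SD, n = 3, log2 fold change 0.03 with SE 0.15, adjusted p = 0.967). Mrps24 was the least precise gene above 10 CPM, with control replicate 1 at 153 CPM and the other controls at 67.6 and 75.1 CPM (log2 fold change 0.23 with SE 0.27, adjusted p = 0.811). Without control replicate 1 its log2 fold change was 0.70 (edgeR adjusted p = 0.0888), and without control replicates 2 and 3 it was 0.02 and 0.07.

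The 3 relatives of bacterial S18, of which only Mrps18c was counted as its homologue in the medians by origin, occupy different places in the mitoribosome: Mrps18c and Mrps18b are small subunit proteins and Mrps18a belongs to the large subunit. Mrps18b was at 37.6, 28.9 and 32.5 CPM without and 38.1, 42.5 and 41.0 CPM with IGF-1 (log2 fold change 0.30 with SE 0.15, adjusted p = 0.487). For Mrps18c the values were 89.2, 110.4 and 99.9 and 118, 128 and 88.2 CPM (log2 fold change 0.16 with SE 0.16, adjusted p = 0.775), and for Mrps18a 114, 90.7 and 107 and 115, 122 and 102 CPM (log2 fold change 0.12 with SE 0.13, adjusted p = 0.795). Only Mrps18b had groups without overlap, by a narrow margin, and none of the 3 passed the test. Mrps18b shares 638 of its 1079 exonic bases with the opposite-strand gene Gm16279, and was read with the same caution as Mrps25. Per kb, Mrps18c (112) and Mrps18a (105) were at like levels and Mrps18b lower (34.1 CPM per kb).

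In the large subunit, Mrpl50 had the smallest p. Its level was 50.2, 48.7 and 45.4 CPM in the controls and 66.6, 65.8 and 54.6 CPM with IGF-1 (log2 fold change 0.37 with SE 0.14, adjusted p = 0.306), with no overlap. Mrpl42, the most abundant gene per kb, was at 179, 187 and 145 CPM and 249, 254 and 160.3 CPM (log2 fold change 0.37 with SE 0.18, adjusted p = 0.467). Here IGF-1 replicates 1 and 2 were above all controls and replicate 3 was inside their range. Mrpl47 and Mrpl21 were the other large subunit genes with all IGF-1 libraries above the controls. Both overlap opposite-strand genes: Mrpl47 shares 452 exonic bases with Actl6a and 158 with Ndufb5, and Mrpl21 shares 117 with Ighmbp2. Mrpl45, the anchor of the mitoribosome to the inner membrane, was at 87.3, 61.1 and 73.5 CPM and 82.2, 95.6 and 91.4 CPM (log2 fold change 0.28 with SE 0.15, adjusted p = 0.520), and its groups overlapped through control replicate 1.

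The stalk of the large subunit recruits translation factors, and none of its genes had separate groups. Mrpl12, the stalk protein that also binds the mitochondrial RNA polymerase, was at 134, 99.0 and 121 CPM without and 117, 165 and 123 CPM with IGF-1 (log2 fold change 0.20 with SE 0.16, adjusted p = 0.711). Mrpl10, which anchors it, was at 25.1, 18.0 and 17.4 and 18.8, 22.1 and 22.2 CPM (log2 fold change 0.06 with SE 0.20, adjusted p = 0.946), and Mrpl11, at the stalk base, at 71.2, 63.5 and 67.5 and 83.7, 83.9 and 69.0 CPM (log2 fold change 0.23 with SE 0.13, adjusted p = 0.552). All 3 had overlapping groups. Mrpl1, a protein near the site where tRNAs leave, stood at 54.9, 53.2 and 43.7 CPM in controls and 62.2, 54.3 and 50.2 CPM with IGF-1 (log2 fold change 0.13 with SE 0.15, adjusted p = 0.795). Near the catalytic centre, Mrpl3 was at 79.8, 72.9 and 77.7 CPM and 83.5, 78.1 and 76.3 CPM (log2 fold change 0.05 with SE 0.12, adjusted p = 0.928). Mrpl58, a peptidyl-tRNA hydrolase built into the ribosome, was at 129 ± 7.69 and 139 ± 16.9 CPM (SD, n = 3, log2 fold change 0.11 with SE 0.13, adjusted p = 0.808). Mrpl44, a protein with a ribonuclease III fold, had a value near 0 (65.6 ± 9.37 and 63.3 ± 5.51 CPM, SD, n = 3, log2 fold change -0.05 with SE 0.14, adjusted p = 0.936). Mrpl41 (0.15, SE 0.16) and Mrps17 of the small subunit (0.10, SE 0.12), both among the 3 highest by CPM, also had overlapping groups.

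A minority of 12 genes had negative values: 9 of the large and 3 of the small subunit. Mrpl9, a large subunit protein with a bacterial homologue, had the smallest p among them, at 197, 162 and 193 CPM in controls and 138, 139 and 176 CPM with IGF-1 (log2 fold change -0.29 with SE 0.14, adjusted p = 0.470). IGF-1 replicates 1 and 2 were below all controls and replicate 3 was inside their range, the mirror image of Mrpl42. Mrpl24 and Mrps5 were the 2 genes with every IGF-1 library below every control. Mrpl24 was at 84.2, 88.4 and 90.5 CPM and 78.6, 78.7 and 75.1 CPM (log2 fold change -0.18 with SE 0.11, adjusted p = 0.597), and Mrps5 at 57.3, 57.6 and 56.6 CPM and 54.6, 48.3 and 49.5 CPM (log2 fold change -0.17 with SE 0.13, adjusted p = 0.660). Both missed the threshold of the test. Mrpl24 shares 594 of its 1557 exonic bases with the opposite-strand gene Rrnad1, and was read with the same caution as Mrps25. Mrpl2, which helps to form the peptidyl transferase region, was at 121, 100.2 and 134 CPM without and 94.0, 111 and 107 CPM with IGF-1 (log2 fold change -0.19 with SE 0.14, adjusted p = 0.660), and Mrps30 at 17.8, 26.0 and 24.6 and 22.3, 18.6 and 18.1 CPM (log2 fold change -0.21 with SE 0.20, adjusted p = 0.756), both with overlap.

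Mrps6 measured 54.4, 44.5 and 68.9 CPM in controls and 43.3, 51.4 and 42.9 CPM with IGF-1 (log2 fold change -0.29 with SE 0.18, adjusted p = 0.578), and control replicate 3 was the high library. In the GENCODE M21 annotation it shares 159 exonic bases on the same strand with Slc5a3, an inositol transporter gene, which had a log2 fold change of -0.88. How reads were split between them was not tested. In that annotation 26 of the 78 genes have exons that overlap another gene's, in 15 of them a gene tested here under the same symbol. Mrps36, the one gene of the set that encodes no ribosomal protein, was at 24.9, 25.1 and 24.5 CPM and 33.0, 33.9 and 24.5 CPM (log2 fold change 0.29 with SE 0.18, adjusted p = 0.569), with IGF-1 replicates 1 and 2 high and replicate 3 no higher than the controls.

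The 45 genes not picked out by the naming rule had log2 fold changes from -0.17 to 0.31, with 41 positive and 4 negative. Their SEs ranged from 0.12 to 0.22, and their adjusted p from 0.479 to 0.986 by edgeR's quasi-likelihood test.

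**Figure D4:**
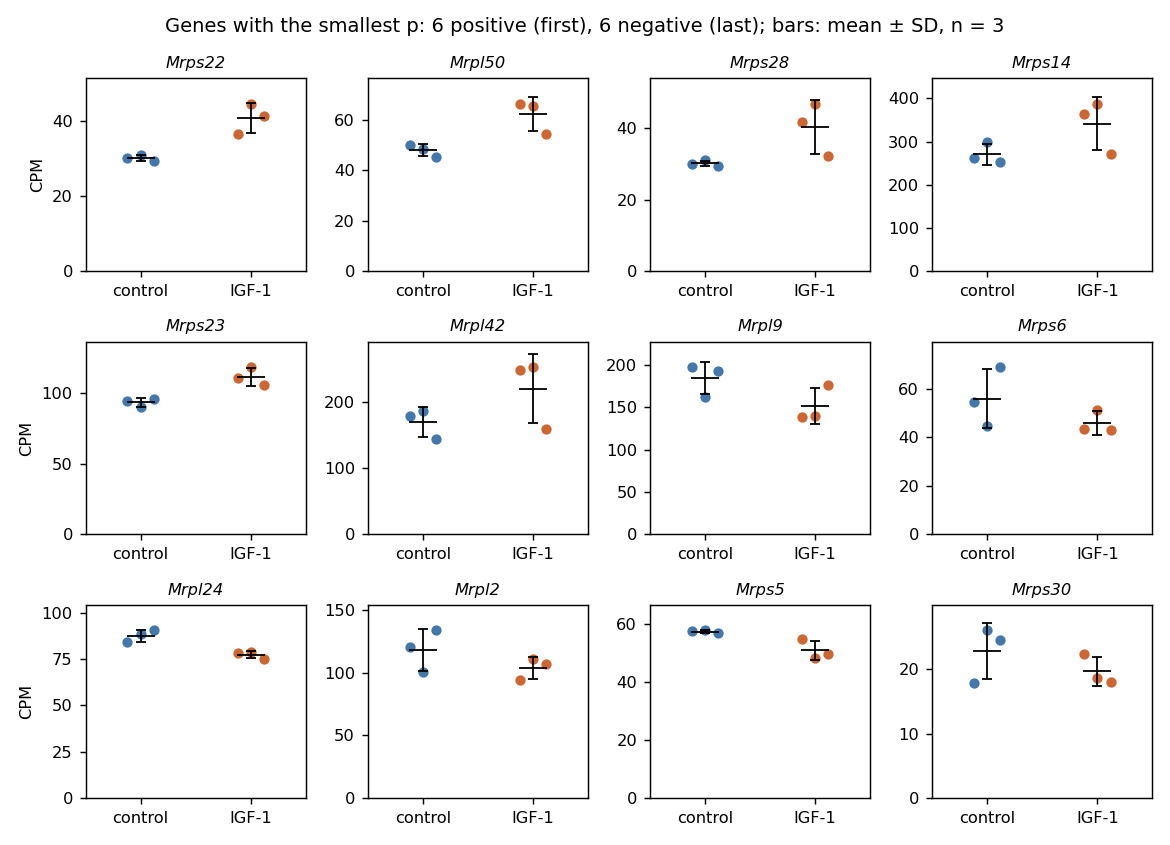
CPM per library (points, 3 control and 3 IGF-1 libraries in the order of their replicate numbers, axes from 0) with mean ± SD for the 6 genes with the smallest p among positive and the 6 among negative values. Mrps22, Mrpl50, Mrps28 and Mrps23 have all IGF-1 points above the controls, and Mrpl24 and Mrps5 have all below.

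Other genes of mitochondrial translation were listed for comparison, and 0 of them passed the test in either direction. The 5 mitoribosomal proteins with other symbols (Dap3, Chchd1, Aurkaip1, Ptcd3 and Gadd45gip1) had a median of 0.16, with 4 positive. Chchd1 (log2 fold change 0.20 with SE 0.16, adjusted p = 0.699) and Dap3 (log2 fold change 0.16 with SE 0.14, adjusted p = 0.743), both of the small subunit, had the smallest p. Assembly and rRNA modification factors had a median of 0.09 with 16 of 29 positive. Among them Fastkd2, which binds mitochondrial rRNA, was at 20.4, 32.2 and 22.3 CPM in controls and 41.8, 43.1 and 32.3 CPM with IGF-1 (log2 fold change 0.65 with SE 0.21, adjusted p = 0.240). Fastkd2 passed only when low counts were not filtered (edgeR adjusted p = 0.0446), a setting that called 429 genes over the whole table. The protease gene Spg7 was at 65.3, 66.5 and 59.3 and 47.1, 43.0 and 56.4 CPM (log2 fold change -0.38 with SE 0.14, adjusted p = 0.319).

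Translation factors (9 of 18 tested genes positive, median 0.02) and tRNA synthetases (12 of 22, median 0.06) lay closer to all genes than the ribosomal proteins did. Mtrf1, a release factor homologue, stood at 6.31, 2.96 and 6.41 CPM and 7.08, 9.08 and 9.27 CPM (log2 fold change 0.70 with SE 0.35, adjusted p = 0.479), and Oxa1l, which inserts new proteins in the inner membrane, at 56.9 ± 3.85 and 67.0 ± 10.7 CPM (SD, n = 3, log2 fold change 0.24 with SE 0.15, adjusted p = 0.597). The glycyl-tRNA synthetase Gars1, which serves cytosol and mitochondria, was at 79.7, 92.4 and 83.4 and 115, 109 and 98.4 CPM (log2 fold change 0.33 with SE 0.12, adjusted p = 0.309), and Rars2 at 39.7, 44.9 and 36.5 and 44.6, 57.1 and 55.1 CPM (log2 fold change 0.37 with SE 0.15, adjusted p = 0.365). Genes of mitochondrial DNA expression had 13 of 19 positive (median 0.05). Tfam, which packages and transcribes mitochondrial DNA, was at 64.3, 73.7 and 70.2 CPM without and 84.4, 93.1 and 74.8 CPM with IGF-1 (log2 fold change 0.28 with SE 0.13, adjusted p = 0.453), without overlap, and the RNA-processing factor Fastkd5 at 25.1, 20.6 and 18.5 and 13.0, 17.1 and 15.4 CPM (log2 fold change -0.50 with SE 0.20, adjusted p = 0.364).

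Protein import, which brings the Mrpl and Mrps proteins into the organelle, had 21 of 27 genes positive and a median of 0.13. The chaperones Hspd1 (HSP60) and Hspa9 (mortalin) had its smallest p, while Timm23, a channel of the inner membrane, had its largest log2 fold change (log2 fold change 0.51 with SE 0.23, adjusted p = 0.424), with groups that overlapped. Hspd1 was at 109, 114 and 108 CPM and 154, 158 and 133 CPM (log2 fold change 0.43 with SE 0.12, adjusted p = 0.175), and Hspa9 at 129, 147 and 148 and 177, 196 and 189 CPM (log2 fold change 0.41 with SE 0.12, adjusted p = 0.191). Neither had overlapping groups. Both passed with DESeq2 (adjusted p = 0.0359 and 0.0378), which called 456 genes against 67 in the main fit, and under no other alternative run. As for the ribosomal proteins, the import list's median deviation was highest in IGF-1 replicate 2 (0.29), then in replicate 1 (0.13) and replicate 3 (0.04).

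The mRNAs that the mitoribosome translates had 12 of 13 positive values and a median of 0.16, the value of COX3 (SE 0.16). Their levels were very uneven: ND4L, ATP8 and ND3 averaged 1.44, 2.97 and 3.26 CPM, with SEs from 0.42 to 0.61. COX2, ATP6 and COX3 averaged 47.4, 55.9 and 56.2 CPM, beside 4966 CPM for COX1 and 4804 CPM for CYTB. ND4L and ATP8 are among the 12 positive genes, and ND3 is the negative one. ND5, a complex I subunit, was at 1700, 1392 and 1360 CPM in controls and 2133, 1765 and 1963 CPM with IGF-1 (log2 fold change 0.40 with SE 0.12, adjusted p = 0.222), and CYTB, the complex III subunit, at 4557, 4653 and 3586 and 5773, 5514 and 4741 CPM (log2 fold change 0.32 with SE 0.12, adjusted p = 0.321). In both genes the groups did not overlap. Mitochondrial genes have near-identical nuclear copies, so their counts are uncertain. Summed over the 13 mRNAs, the controls ranged from 15793 to 20445 CPM and the IGF-1 libraries from 19694 to 23282 CPM.

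Regulators of mitochondrial gene expression had a median of -0.02, with 4 of 10 tested genes positive. Gabpa, which encodes the DNA-binding subunit of the ETS-family factor GABP, was at 44.6, 43.0 and 48.7 CPM in the control libraries and 62.6, 62.7 and 62.7 CPM with IGF-1 (log2 fold change 0.46 with SE 0.13, adjusted p = 0.174). Its groups did not overlap, and of the alternatives run DESeq2 alone placed it past the threshold (adjusted p = 0.0482). Myc was at 13.5, 9.24 and 15.0 CPM and 7.65, 7.48 and 11.8 CPM (log2 fold change -0.48 with SE 0.29, adjusted p = 0.565), with overlap. Nrf1 (log2 fold change -0.14 with SE 0.18, adjusted p = 0.826) and Yy1 (log2 fold change -0.12 with SE 0.12, adjusted p = 0.777) also had values under 0, and Ppargc1a had at most 21 reads in a library and was not tested.

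**Figure D5:**
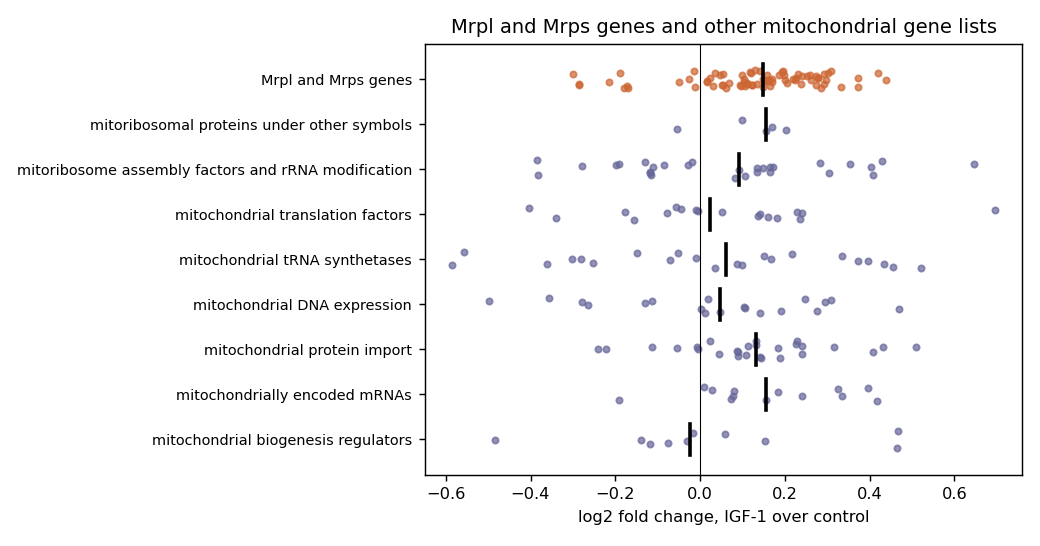
Log2 fold change (horizontal axis, IGF-1 over control) of each tested gene (points, spread vertically for legibility) in the Mrpl and Mrps genes and 8 other lists, with each list's median as a bar. The medians of the ribosomal proteins (0.15), the import genes (0.13) and the mitochondrially encoded mRNAs (0.16) lie right of 0, and those of the translation factors (0.02) and regulators (-0.02) close to it.

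Total counts ranged from 32573713 to 39206449 per library, and each Mrpl and Mrps gene had at least 97 reads in every library. Of the listed ILC3 markers, Kit was between 605 and 764 CPM, Il7r was at 478, 460.0 and 436 CPM in controls and 462, 365 and 424 CPM with IGF-1, and Id2 was at 1896, 2032 and 1866 and 2565, 2719 and 2262 CPM. Of the 14 listed ILC3 markers 5 had a positive and 9 a negative log2 fold change (median -0.08). Tcf7 (log2 fold change -0.52 with SE 0.11, adjusted p = 0.0945) and Ahr (log2 fold change -0.47 with SE 0.19, adjusted p = 0.360) had all IGF-1 libraries below the controls. Markers of other cells were lower in level: summed T cell markers ranged from 42.5 to 50.5 CPM in controls and from 35.8 to 45.8 CPM with IGF-1 (4 of 7 tested), and epithelial markers from 40.0 to 55.1 and from 19.2 to 26.9 CPM (5 of 8 tested, Krt19 at 0 reads). The epithelial sum was mostly Epcam, which was lower with IGF-1 (log2 fold change -1.13 with SE 0.20, adjusted p = 0.0442). Krt8, Krt18 and Vil1 averaged 0.57, 0.79 and 0.40 CPM over all libraries. All 5 tested epithelial markers had negative log2 fold changes. Within the T cell list Cd4 was at -0.52, SE 0.18 on the log2 scale, Cd3d at 1.05, SE 0.52 and Cd3g at 0.56, SE 0.36, and none passed the test. Summed stromal markers ranged from 85.4 to 114 CPM in controls and from 78.2 to 85.4 CPM with IGF-1 (3 of 7 tested, mostly Pecam1). NK and ILC1 markers summed to 37.4 to 50.9 and 36.8 to 49.3 CPM (4 of 7 tested). Of those tested, 2 had a positive and 2 a negative log2 fold change, from -0.35 to 1.42 with a median of 0.07. The highest was Prf1, which was higher in every IGF-1 library (log2 fold change 1.42 with SE 0.42, adjusted p = 0.204). The B and plasma cell markers tested (2 of 6) summed to 17.5 to 36.4 and 27.8 to 35.6 CPM, mostly Cd79b. Eomes and Ms4a1 had 0 reads in every library. Control replicate 3 held 18629 reads of the plasma cell gene Jchain, against 4 to 7 in the others, and without it the median of the 78 genes was 0.12 with 62 positive. In bulk samples fewer cells of a type and less RNA per cell cannot be told apart, and the part of other cells in the result was not tested.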

How the data were processed

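The deposited file holds raw counts per gene symbol that the authors made for 6 libraries, 3 control and 3 IGF-1, grouped by title. SMART-Seq HT libraries were made from lysed cells, per the labels' protocols, and the kit does not mark strand. Build GRCm39 is named, per the submitters' processing notes, as are featureCounts 1.5.3, HISAT2 2.2.1, SAMtools 1.15.1 and the read trimmer fastp 0.23.2. No source used here gives the annotation, the strand setting or the treatment of multi-mapped reads. Reads of processed pseudogenes and overlapping genes may therefore be mixed with those of their counterparts.

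Genes were kept by edgeR's filterByExpr (minimum count 10, minimum total 15), which removed 0.0806% of counts. Differences were tested over all 13483 genes with edgeR 4.0.16 in R 4.3.3 (TMM, glmQLFit and glmQLFTest, group as the only term, Benjamini-Hochberg adjustment at 0.05). The SE is the log2 fold change divided by the square root of F. CPM values use TMM-scaled library sizes, and counts from PCR reads are not independent molecules. Exonic lengths are unions of exons in GENCODE M21 basic (GRCm38) and promoters are RefSeq windows on GRCm38.p6, both of another build than the counts, and used for scaling, gene neighbours and sequence only. DESeq2 1.42.0 and limma-voom (limma 3.58.1) were alternatives, with other scalings, filters, a replicate block and each library left out. The edgeR test was also run on 3 simulated data sets. It called 26% of the genes given a true log2 change of 0.6, 79.3% of those given 1, and 0.0492% of unchanged genes. No true change between 0 and 0.6 was simulated, and the Mrpl and Mrps genes had log2 fold changes of at most 0.44. That none of them passed therefore does not show that they were unchanged.

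Libraries of a group differed by more than counting noise (chi-square per degree of freedom 38.7 to 89.3), so none was the same library deposited again. Whether they are technical repeats of the same cells cannot be told from this. The genes and lists were chosen with earlier results of these data known. The rule for named genes took the 6 smallest p per direction, the 3 highest and lowest by CPM, the smallest and largest SE, a fixed set of genes of known role, and the 2 smallest p of each list. Other genes were named after their values were seen, as were the length quartiles and promoter motifs. Those genes were Mrpl33, Mrpl19, Mrpl47, Mrpl21, Mrpl51, Mrps25, Nrf1, Yy1, Ppargc1a and Timm23. The mitochondrially encoded ND4L, ATP8, ND3, COX1, COX2, COX3 and ATP6 were also named in this way. So were the overlapping genes Nr2c2, Slc5a3, Rrnad1, Gcfc2, B430218F22Rik, Gm16279, Actl6a, Ndufb5 and Ighmbp2, and the markers. One marker gene is not reported here.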

Additional observations from a re-analysis of the deposited data

How the results depend on the processing

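Under every alternative run, 0 of the 78 Mrpl and Mrps genes passed the test, and the lowest and highest counts with 1 library left out were 0 and 0. Their median log2 fold change kept its sign, between 0.11 (library size alone) and 0.15 under other scalings, filters and tools, and ranged from 0.06 (without IGF-1 replicate 2) to 0.23 (without IGF-1 replicate 3) with 1 library left out. The number of positive genes ranged from 54 to 67 in the latter fits. Of the 78 genes, 49 were positive and 8 negative in all 6 of them, and 21 turned sign in at least 1.

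The number of genes called over the whole table, 67, moved more. It was 456 with DESeq2, 429 with no filter on low counts, 178 with at least 10 CPM in 3 libraries, 144 at an adjusted p under 0.1, and between 0 and 55 with 1 library left out: 55, 6 and 2 without control replicates 1, 2 and 3, and 0, 1 and 17 without IGF-1 replicates 1, 2 and 3. The fit with the replicate block called 8 genes and 0 of the 78. Deviations of same-numbered libraries from their group means correlated at -0.08, -0.02 and 0.11 across genes, and at -0.30, 0.09 and 0.27 across the 78. With 3 libraries per group these values cannot tell whether same-numbered libraries were paired. By replicate number, the median difference over the 78 genes was 0.06, 0.36 and 0.03. Of the 78 genes 47, 71 and 43 were higher with IGF-1 in replicates 1, 2 and 3.

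Among named genes the sign turned with library size alone for Mrps34 (-0.0033). With 1 library left out it turned for Mrps34 (-0.087 to 0.14), Mrps7 (-0.075 to 0.20), Mrpl10 (-0.034 to 0.25) and Mrpl44 (-0.13 to 0.070). Mrps24 kept its sign and ranged from 0.02 to 0.70, the latter without control replicate 1. The cause was not tested. The median SE over the 78 genes was 0.15, as large as their median log2 fold change.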
